A study of Mus musculus with 4 samples.

Results

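The genes described here belong to the intracellular arm of bone morphogenetic protein (BMP) signaling in uteri of pregnant mice with and without Qa-2, a nonclassical MHC class I molecule. They are 10 genes, taken by name from 55421 genes counted in each library, namely Atoh8, Smad9, Smad1, Smad5, Smad6, Smad7, Id1, Id2, Id3 and Id4. Atoh8 and Smad9 were chosen by their fold change between WT and Qa-2- uteri in these same libraries, so that their differences are given as a description and were not tested. The other 8 genes were added to ask whether further effectors and targets of the pathway moved with them. All 10 genes were among the 14492 genes that had at least 1 CPM in at least 2 libraries, where CPM is the count scaled to the size of its library.

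RNA was sequenced from uteri of 2 WT mice of strain C57BL/6J and 2 Qa-2- mice of strain B6.Cg-H2b3/FlaCmwJ, known as B6.K1. All were pregnant at E18.5 with no treatment named in the labels. The methods speak of whole uterine lysates but took only a small amount of frozen tissue for RNA and do not name its place. The piece sampled may thus differ between libraries and groups, which was not tested. Each library came from the uterus of 1 mouse, and the fetuses came from matings within the strain. B6.K1 is a congenic strain that differs from C57BL/6J in the H2 region around the Qa-2 genes, and its mice came from another supplier than the WT mice, so that loss of Qa-2, other linked genes and the source of the animals cannot be told apart. The Qa-2 genes followed the labels, with H2-Q6 at 105 and 31.6 CPM in WT replicates 1 and 2 against 0.0845 and 0.0858 CPM in Qa-2- replicates 1 and 2, and H2-Q7 at 157 and 33.2 CPM against 0.113 and 0.0572 CPM. These paralogs are close in sequence, so the split between them is uncertain, and the Qa-2- values rest on 2 to 4 read pairs per gene and library. Between 33286390 and 41041299 read pairs were counted per library, so that a floor of 3 counts lies between 0.0747 and 0.0858 CPM on the TMM-scaled library sizes used here and covers counting error only. Smooth muscle markers, which define the uterine wall, summed to 27583 and 45945 CPM in WT and to 24808 and 13278 CPM in Qa-2- uteri, so that both WT libraries were higher. Single genes listed as markers of fetal tissue were highest in single libraries. Rbp4 was at 977 CPM in WT replicate 1, Psg21 at 8.17 CPM in WT replicate 2 alone, and Afp at 373 CPM in Qa-2- replicate 1. Rbp4 and Afp belong to 6 markers of yolk sac and fetal liver, which summed to 984 and 66.5 CPM in WT against 505 and 43.9 CPM. Of the 5 past the filter, Rbp4 was higher in both WT libraries, while the other 4 had negative log2 fold changes.

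BMP ligands bind pairs of type I and type II receptor kinases at the cell surface. The receptors phosphorylate the receptor SMADs encoded by Smad1, Smad5 and Smad9, which join SMAD4 and enter the nucleus. Transcripts of Id1, Id2 and Id3 are classical early targets, and the ID proteins, which lack a DNA-binding region, hold basic helix-loop-helix (bHLH) factors off DNA. Smad6 and Smad7 encode inhibitory SMADs that are induced by the pathway and dampen it. In blood and lymphatic endothelium BMP signaling through the type I receptor ALK1 (Acvrl1) and the co-receptor endoglin (Eng) is known for its part in vessel growth, and in the pregnant uterus BMP2 is known for its part in decidualization.

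Values are read as follows. CPM were computed on TMM-scaled library sizes. Fold changes are WT over Qa-2-, and p-values come from the quasi-likelihood test of edgeR, adjusted after Benjamini-Hochberg across the 14492 genes, where a gene counts as called below an adjusted p of 0.05. An exact permutation test of 1 gene, two-sided, could not go below 0.33 with 2 mice on each side, so none is printed.

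Atoh8 encodes a bHLH transcription factor of the atonal family and is a known BMP target in endothelial cells and hepatocytes. The gene (ENSMUSG00000037621) lies on the minus strand of chromosome 6 of GRCm38 from 72206177 to 72235577, and the counts are those over its exons. Its level was 18.0 and 28.6 CPM in WT replicates 1 and 2 against 5.16 and 4.15 CPM in Qa-2- replicates 1 and 2. Both WT libraries lay above both Qa-2- libraries, and WT replicate 2 lay highest. Means were 23.3 ± 7.49 CPM for the WT mice (SD, n = 2) against 4.65 ± 0.715 CPM for the Qa-2- mice, a log2 fold change of 2.32 with a standard error of 0.31. Leaving out single libraries moved it between 1.94 and 2.59.

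Smad9 encodes the receptor SMAD also called SMAD8, and is itself known as a transcriptional target of the pathway. The gene (ENSMUSG00000027796) lies on the plus strand of chromosome 3 from 54755582 to 54801257. It had 210 and 273 read pairs in WT against 63 and 36 read pairs in Qa-2- uteri, which is 5.23 and 7.24 CPM against 1.78 and 1.03 CPM. The groups did not overlap here either, and Qa-2- replicate 2 lay lowest. This is a log2 fold change of 2.15 with a standard error of 0.41, and leaving out single libraries moved it between 1.81 and 2.59.

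**Figure D1:**
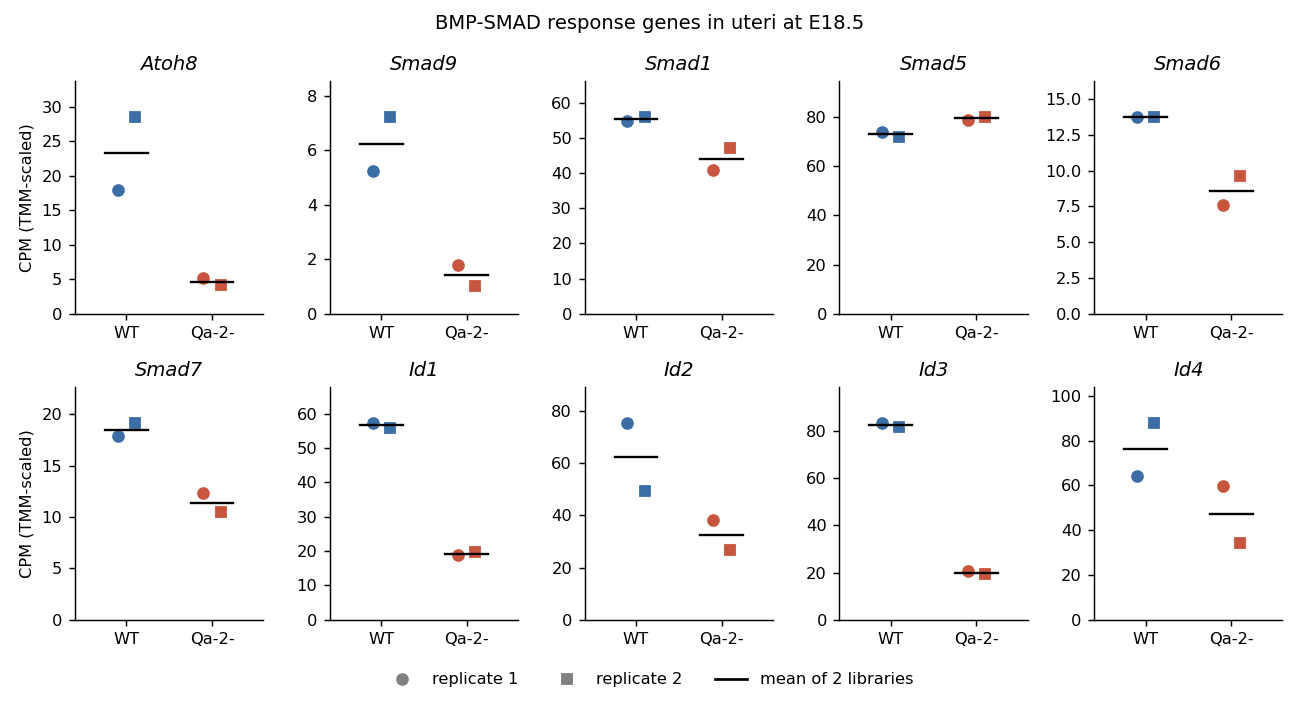
Levels of the 10 BMP-SMAD response genes in each library, in CPM on TMM-scaled library sizes on linear axes that start at 0. Circles are replicate 1, squares replicate 2 and bars the mean of the 2 libraries of a group. Both WT libraries lie above both Qa-2- libraries for every gene but Smad5, where the order is turned.

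Because the question is whether these genes move together, the DNA before the start site is shown for Atoh8, Smad9 and the inhibitory Smad6, in which the RefSeq start coincides with the start of the gene in the deposited counts. This is also so for 1 start of Smad5, whose window, not shown, holds neither GGCGCC nor GGAGCC. RefSeq promoters of GRCm38.p6 were found for 8 of the 10 genes, with 3 start sites for Smad5, and not for Id1 and Smad7. The 250 bases before the start are printed 5′ to 3′ on the strand of the gene. Capitals mark GGCGCC and GGAGCC, or its reverse complement GGCTCC, which are GC-rich sequences of the kind bound by SMAD1 and SMAD5. The windows are chr6:72235578-72235827 on the minus strand for Atoh8, chr3:54755332-54755581 on the plus strand for Smad9 and chr9:64022060-64022309 on the minus strand for Smad6.
Atoh8: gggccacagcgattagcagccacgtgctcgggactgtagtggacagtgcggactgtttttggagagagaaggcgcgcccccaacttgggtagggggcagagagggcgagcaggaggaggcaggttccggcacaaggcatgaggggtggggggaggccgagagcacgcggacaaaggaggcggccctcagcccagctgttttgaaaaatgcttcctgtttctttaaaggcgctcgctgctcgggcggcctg
Smad9: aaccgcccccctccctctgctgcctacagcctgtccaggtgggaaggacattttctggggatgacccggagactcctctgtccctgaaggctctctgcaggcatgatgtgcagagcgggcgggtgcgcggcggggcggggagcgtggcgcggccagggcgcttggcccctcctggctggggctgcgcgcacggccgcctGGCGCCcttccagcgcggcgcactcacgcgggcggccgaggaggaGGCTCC
Smad6: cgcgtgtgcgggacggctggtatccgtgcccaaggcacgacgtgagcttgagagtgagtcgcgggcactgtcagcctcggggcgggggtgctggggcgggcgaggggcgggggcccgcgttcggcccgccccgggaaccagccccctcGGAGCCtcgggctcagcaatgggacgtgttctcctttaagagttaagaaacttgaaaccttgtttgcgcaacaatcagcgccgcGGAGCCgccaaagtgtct
The Atoh8 window held neither motif, the Smad9 window held 1 of each, and the Smad6 window held GGAGCC at 2 positions. Counted per window, on either strand, GGCGCC was found in 4 of the 10 windows of these 8 genes and in 9.59% of 32851 RefSeq promoters of the same length, and GGAGCC in 6 of the 10 windows and in 26.0% of all promoters. GTCTAGAC, a pair of SMAD boxes end to end, was found in 0 of the 10 windows and in 0.167% of all promoters. GGCGCC followed by GTCT after a spacer of 5 bases, which contains the first motif and is known from Id1, was found in 0 of the 10 windows and in 0.0700%. CAGACA, a form of the SMAD3 and SMAD4 box, was found in 0 of the 10 windows and in 17.1% of all promoters. The windows are rich in G and C, with 63.2% for Atoh8, 73.2% for Smad9 and 66.8% for Smad6 against a median of 52.4% over all promoters. These matches describe the letters only.

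Among the other 8 genes, Id3 and Id1 differed most between the groups, and Id2, Smad6 and Smad7 differed less. edgeR called 0 of the 8 genes, as it called 0% of all genes tested. An unadjusted p under 0.05 was found for 5 of the 8 genes, all higher in WT, and for 15.2% of all genes, made up of 8.09% that were higher in WT and 7.09% in Qa-2- uteri. DESeq2's Wald test called Id1 and Id3 of the 8, both higher in WT, against 4.83% of all genes and 2.79% of all genes as higher in WT. The 2 groups of libraries did not overlap for any of the 8 genes, which was so for 50.0% of all genes: 7 genes were higher in both WT libraries, as were 25.4% of all genes, and Smad5 was higher in both Qa-2- libraries, as were 24.5%. A positive log2 fold change was found for 7 of the 8 genes and for 51.1% of all genes. Over the 8 genes the median was 0.70 on the log2 scale, against 0.01 over all genes tested. These genes were listed with earlier results of the same libraries known, and the counts describe these 4 mice.

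Id3 encodes an inhibitor of DNA binding that is strongly expressed in vascular cells. Its level was 83.6 and 81.6 CPM in WT against 20.7 and 19.2 CPM in Qa-2- uteri. Within each group the libraries lay close together, and the groups lay far apart. The mean was 82.6 ± 1.42 CPM for the WT mice (SD, n = 2) against 19.9 ± 0.998 CPM for the Qa-2- mice, which is 4.14 times as much in WT. On the log2 scale Id3 differed by 2.05 (standard error 0.15), and edgeR gave an adjusted p of 0.197, from the 2nd smallest p of all genes tested. DESeq2 gave an adjusted p of 3.94e-17 for Id3, and over the 14 alternatives to the main comparison the adjusted p of Id3 ran from 3.94e-17 to 0.818.

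Id1, a common readout of BMP signaling, showed the same order. Its level was 57.4 and 55.8 CPM in WT against 18.7 and 19.8 CPM in Qa-2- uteri. Neither group spread by more than a small part of the gap between them. The mean was 56.6 ± 1.16 CPM for the WT mice (SD, n = 2) against 19.3 ± 0.761 CPM for the Qa-2- mice, 2.94 times as much in WT. On the log2 scale Id1 differed by 1.55 (standard error 0.15), and the edgeR adjusted p was 0.228. DESeq2 gave an adjusted p of 3.68e-09 for Id1, with a range from 3.68e-09 to 0.818 over the alternatives. Without WT replicate 2, Id3 and Id1 passed the threshold (edgeR adjusted p = 0.0206 and 0.0481). In both genes the log2 fold change hardly moved with the library left out, between 1.999 and 2.10 for Id3 and between 1.51 and 1.59 for Id1.

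Id2 and Id4, the other members of the family, varied more within the groups. Id2, which also marks innate lymphoid and natural killer cells, was at 75.6 and 49.5 CPM in WT against 38.1 and 26.7 CPM in Qa-2- uteri. The lower WT library and the higher Qa-2- library were near each other. For Id2 this is a log2 fold change of 0.95 (standard error 0.29), and the edgeR adjusted p was 0.281, and without WT replicate 1 the log2 fold change was 0.58. Id4 was at 64.2 and 88.0 CPM in WT against 59.9 and 34.3 CPM in Qa-2- uteri. WT replicate 1 and Qa-2- replicate 1 were close, and the distance between the groups rested on the libraries of replicate 2. For Id4 this is a log2 fold change of 0.69 (standard error 0.32, edgeR adjusted p = 0.372). It was 0.35 without Qa-2- replicate 2 and 0.45 without WT replicate 2, and was 1.15 without Qa-2- replicate 1.

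Of the inhibitory SMADs, Smad6 acts mainly on BMP receptor SMADs and Smad7 on BMP and TGF-β receptors alike. Smad6 was at 13.8 CPM in each WT library against 7.58 and 9.61 CPM in Qa-2- uteri. Smad7 was at 17.8 and 19.2 CPM in WT against 12.3 and 10.5 CPM in Qa-2- uteri. For both genes the groups stood apart by more than the spread within them. The log2 fold change was 0.68 for Smad6 (standard error 0.22, edgeR adjusted p = 0.294) and 0.70 for Smad7 (standard error 0.19, edgeR adjusted p = 0.271). DESeq2's adjusted p was 0.186 for Smad6 and 0.116 for Smad7, within ranges over the alternatives from 0.135 and from 0.104 to 0.818.

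Smad1 and Smad5, the more abundant receptor SMADs, differed little. Smad1 was at 55.0 and 56.1 CPM in WT against 41.0 and 47.0 CPM in Qa-2- uteri, or 0.34 on the log2 scale (standard error 0.15, edgeR adjusted p = 0.369). Smad5 was at 73.9 and 72.2 CPM in WT against 78.7 and 80.3 CPM in Qa-2- uteri. The Qa-2- libraries were thus the higher ones for Smad5, by less than its standard error. The log2 fold change of Smad5 was -0.12 (standard error 0.14, edgeR adjusted p = 0.705).

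**Figure D2:**
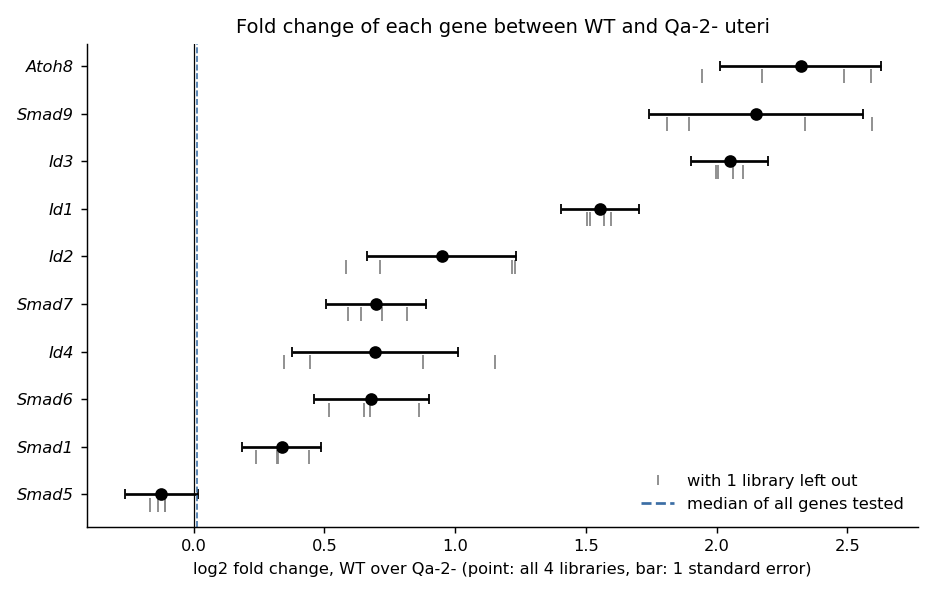
Log2 ratio of WT to Qa-2- uteri for each of the 10 genes, with a bar of 1 standard error. Short grey strokes are the values with 1 library left out, and the dashed line is the median over all genes tested at 0.01. Id3 and Id1 have the narrowest bars for their size, while the strokes of Atoh8, Smad9, Id2 and Id4 scatter most widely.

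To compare levels between genes, length-scaled abundances (TPM) were computed from the counts and the gene lengths. In WT uteri the order by mean TPM was Id1 (138 ± 4.44, SD, n = 2), Id3 (131 ± 4.64), Id2 (72.2 ± 17.6), Id4 (56.5 ± 15.4), Smad5 (27.9 ± 1.01), Atoh8 (26.5 ± 9.86), Smad1 (25.2 ± 1.69), Smad6 (12.2 ± 0.631), Smad7 (11.6 ± 1.20) and Smad9 (3.32 ± 0.923). Id1 and Id3 lay close to each other, at 135 and 142 TPM and at 127 and 134 TPM. The ranges of Id2 and Id4 overlapped, as did those of Smad6 and Smad7, and the range of Atoh8 held those of Smad5 and Smad1, which did not overlap each other. Where ranges overlapped, the order is not resolved. In Qa-2- uteri the order was Id1 (51.9 ± 0.511), Id2 (41.7 ± 11.6), Id4 (38.4 ± 15.9), Id3 (34.8 ± 2.77), Smad5 (33.5 ± 0.520), Smad1 (21.9 ± 1.49), Smad6 (8.36 ± 1.15), Smad7 (7.89 ± 1.10), Atoh8 (5.81 ± 1.06) and Smad9 (0.821 ± 0.331). There the ranges of Id2, Id3, Id4 and Smad5 overlapped, as did those of Smad6 and Smad7, and Atoh8 lay below Smad1, Smad6 and Smad7. Smad9 was the least abundant in both groups.

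The sum of the receptor SMADs did not separate the groups. Smad1, Smad5 and Smad9 summed to 53.8 and 58.96 TPM in WT and to 55.8 and 56.7 TPM in Qa-2- uteri, and the groups overlapped. Smad9 held 4.94% and 6.73% of this sum in WT against 1.89% and 1.03% in Qa-2- uteri. As Smad9 was chosen by its fold change in these libraries, its higher share of a like sum in WT follows from that choice. Smad5 held 50.5% and 48.5% in WT against 60.7% and 58.4%. The ratio of Smad6 and Smad7 to Smad1 and Smad5, in TPM, was 0.440 and 0.457 in WT and 0.296 and 0.290 in Qa-2- uteri. Id1 to Id4 summed to 393 and 403 TPM in WT and to 188 and 146 TPM in Qa-2- uteri, a ratio of means of 2.38. Id3 held 32.4% and 33.3% of the ID transcripts in WT against 19.6% and 22.5% in Qa-2- uteri, while the share of Id1 overlapped between the groups (34.4% and 35.1% against 27.4% and 35.8%). These shares and ratios were not tested.

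**Figure D3:**
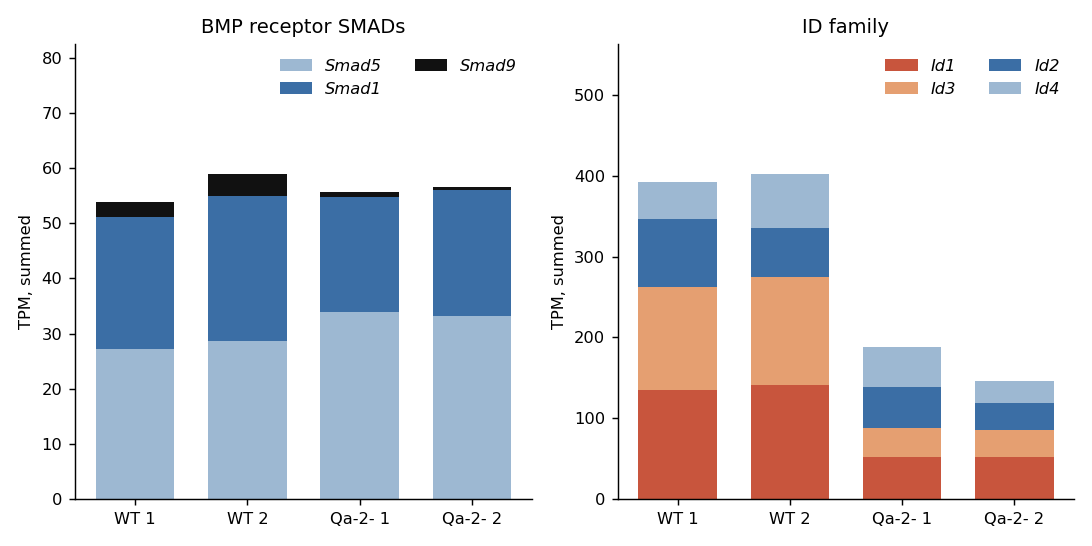
Summed TPM of the BMP receptor SMADs (left) and of the ID family (right) in each library, on linear axes from 0, with 1 color per gene. The receptor SMAD bars are of like height in the 4 libraries. The layer of Smad9, which was chosen by its fold change, is thinner in Qa-2- uteri. The ID bars stand at 393 and 403 TPM in WT and at 188 and 146 TPM in Qa-2- uteri.

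To see which genes resembled Atoh8 and Smad9 most, genes were ranked by the Euclidean distance between their centred log2 CPM over the 4 libraries. The genes share these libraries, and the groups differ in Atoh8 and Smad9 by choice, so the ranks are a description. Smad9 was the 3rd nearest of 14491 genes to Atoh8, after Tceal3, of a transcription elongation factor-like family, and Hbb-bs, an adult beta globin of red cells. The genes nearest to Smad9 were Tceal3, Galnt18, a glycosyltransferase, and Thbs4, a thrombospondin of the extracellular matrix. Id3 ranked 14 by distance to Atoh8 and 28 by distance to Smad9, and Id1 ranked 67 and 117. Id4, Id2 and Smad7 ranked between 678 and 928 in both, Smad6 ranked 1185 and 1512, and Smad1 and Smad5 lay at 2895 and beyond. Id3 and Id1 were thus nearer to both than the other members were.

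The remaining parts of the pathway were read from lists by role. After adjustment edgeR called 0 genes of any of these lists. DESeq2 called 1 of the ligands, 0 of the receptors and, in each direction, 1 of the antagonists. It called 1 of the other targets as higher and 2 as lower in WT, and 1 of the regulators as lower in WT. The counts at an unadjusted p under 0.05 given for these lists stand beside 15.2% of all genes in either direction, and the DESeq2 counts beside 4.83%. Of 14 BMP ligand genes 7 passed the filter, with a median of 0.17 on the log2 scale, and 2 of them had an unadjusted p under 0.05, both higher in WT. Bmp6, a ligand known from endothelium and iron metabolism, was at 14.9 and 11.9 CPM in WT against 5.52 and 5.57 CPM in Qa-2- uteri, which is 1.27 on the log2 scale (standard error 0.23, edgeR adjusted p = 0.246). It was the 1 ligand that DESeq2 called (adjusted p = 0.00234, from 0.00234 to 0.818 over the alternatives), and it was chosen after its values were seen. Gdf7 was at 17.5 and 44.4 CPM in WT against 14.1 and 11.4 CPM, and its log2 fold change of 1.28 was 0.45 without WT replicate 2. The smallest value was that of Bmp3, at -0.68, which was -1.34 without WT replicate 1 and -0.25 without WT replicate 2. Gdf2 and Bmp10, the circulating ligands of ALK1, had 0 counts in every library, which allows up to 0.0858 CPM in the shallowest.

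Receptors and co-receptors went both ways. Of 13 genes 12 passed the filter, 5 with a positive and 7 with a negative log2 fold change, with a median of -0.08, and the groups did not overlap for 5 of them, near the 50.0% of all genes. Acvrl1 was at 109 and 109.6 CPM in WT compared to 105 and 103 CPM in Qa-2- uteri, and Bmpr2, the type II receptor, was at 105 and 101 CPM against 112 and 102 CPM. Eng, a co-receptor of endothelial cells and the receptor gene with the largest log2 fold change, was at 198 and 229.6 CPM in WT against 142 and 102 CPM in Qa-2- uteri. This is a log2 fold change of 0.81 (standard error 0.23, edgeR adjusted p = 0.275), and Eng was the 1 gene of the list with an unadjusted p under 0.05. Acvr2b had the smallest, at -0.96 and between -1.55 and -0.56 with single libraries left out, from 2.99 and 1.54 CPM in WT against 4.76 and 4.06 CPM.

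Of 15 extracellular antagonists and modulators 13 passed the filter, with a median log2 fold change of 0.46. The list went both ways, as an unadjusted p under 0.05 was found for 5 genes that were higher in WT and for 2 that were lower. Noggin (Nog), which traps BMP ligands and is a known BMP target, had the smallest value, at 8.20 and 13.2 CPM in WT against 21.1 and 26.4 CPM in Qa-2- uteri. Its log2 fold change was -1.15 (standard error 0.29, edgeR adjusted p = 0.257), and DESeq2 gave an adjusted p of 0.0230, with a range from 0.0230 to 0.818 over the alternatives.

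The other BMP-SMAD targets went both ways. Of 16 genes 13 passed the filter, with a median of -0.09 on the log2 scale, and an unadjusted p under 0.05 was found for 3 that were higher in WT and for 2 that were lower. Stmn2, a microtubule-binding protein gene, had the largest log2 fold change, at 1.21, which was 0.62 without WT replicate 1, and Nog the smallest. Msx1, a homeobox gene and BMP target in many mesenchymal tissues, was at 5.63 and 4.93 CPM in WT against 9.66 and 13.7 CPM in Qa-2- uteri, or -1.14 on the log2 scale. Hey1, a target in endothelium, had the opposite order, at 14.9 and 11.1 CPM against 6.51 and 6.12 CPM, or 1.04 on the log2 scale. Both Msx1 and Hey1 were singled out after their values were seen, and for each the edgeR adjusted p was 0.255. DESeq2 gave adjusted p of 0.0218 for Msx1 and 0.0289 for Hey1, the smallest over the alternatives, which reached 0.818. Eng, Nog, Bambi and Bmper stand in more than 1 of the lists.

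Within the cell, 22 regulators of the BMP SMADs had a median log2 fold change of 0.00, from -0.69 for Usp9x, a deubiquitinase that acts on SMAD4, to 0.57 for Fkbp1a, which binds type I receptors. An unadjusted p under 0.05 was found for 2 of them that were higher in WT and for 1 that was lower, a share near that of all genes. Of Smad2, Smad3 and Smad4, the common SMAD Smad4 had the largest log2 fold change at 0.06, from 103 and 105 CPM in WT and 104 and 96.2 CPM in Qa-2- uteri. Smad3, a receptor SMAD of TGF-β and activin, was at 49.8 and 34.4 CPM in WT against 76.7 and 69.2 CPM in Qa-2- uteri, or -0.79 on the log2 scale (standard error 0.22, edgeR adjusted p = 0.274).

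**Figure D4:**
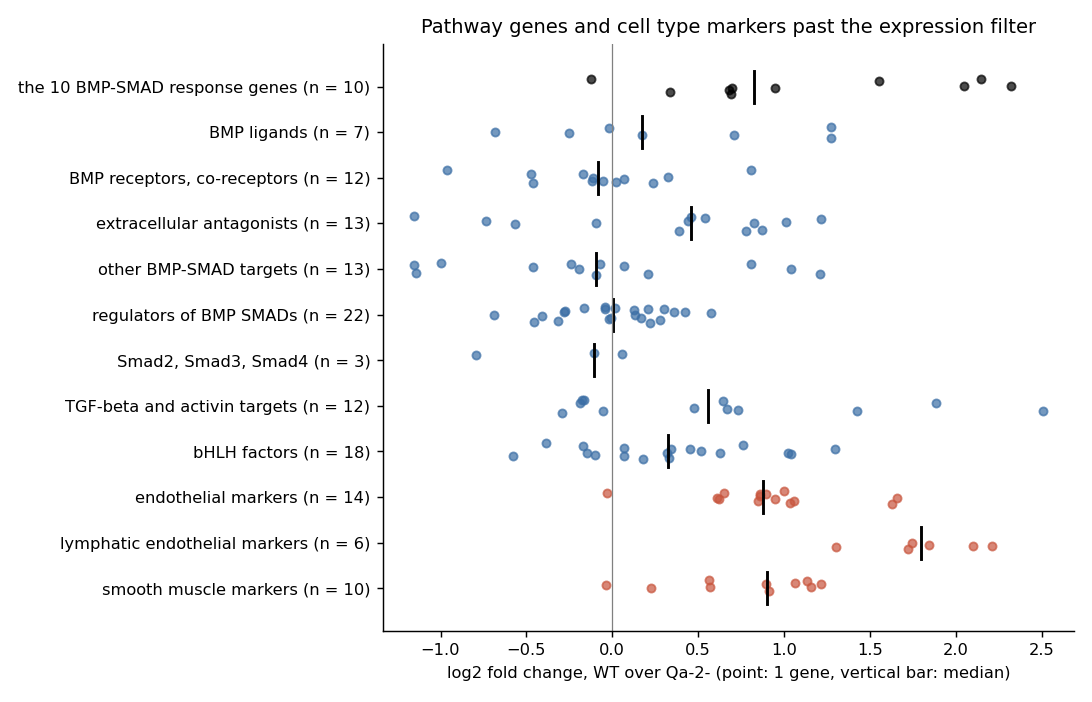
Log2 ratio of WT to Qa-2- uteri for each gene past the expression filter, by list. Points are genes and vertical bars the median of a list. The medians of the ligands, receptors, regulators and other BMP-SMAD targets lie between -0.09 and 0.17, those of the endothelial and smooth muscle markers at 0.88 and 0.90, and that of the lymphatic markers at 1.80. The median of the 10 genes, 0.82, includes Atoh8 and Smad9, which were chosen by this difference, and is 0.70 without them.

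Markers of endothelium, among other tissues, were also higher in WT. All 14 endothelial markers passed the filter and none was at 0 in any library. The groups did not overlap for 13 of them, all higher in WT, as were 25.4% of all genes, and 12 had an unadjusted p under 0.05, against 8.09% of all genes in that direction. After adjustment edgeR called 0 of the 14 and DESeq2 called 10, against 2.79% of all genes as higher in WT. Their median log2 fold change was 0.88, from -0.03 for Sox17 to 1.66 for Cldn5. Their sum was 1671 and 1537 CPM in WT against 807 and 774 CPM in Qa-2- uteri. All 6 markers of lymphatic endothelium were higher in both WT libraries, with sums of 1237 and 781 CPM against 358 and 203 CPM. In whole tissue, fewer cells of a type and less RNA per cell cannot be told apart. Smooth muscle markers had a median of 0.90 on the log2 scale, about that of the endothelial markers, with 9 of 10 positive, and their sums stood apart as well. Of these 10 genes 6 were higher in both WT libraries, 0 had an unadjusted p under 0.05 and DESeq2 called 2, both higher in WT. Sums also stood apart for the 5 red cell genes, at 364 and 722 CPM in WT compared to 116 and 75.6 CPM, for the 6 mesothelial markers, at 131 and 139 CPM against 104 and 58.3 CPM, where Wt1 was the most abundant gene, and for the 12 epithelial markers, which were lower in WT at 3832 and 2290 CPM against 4720.4 and 5064 CPM. The mesothelial markers had a median of 3.33 on the log2 scale, above the medians of the endothelial and lymphatic markers, from 0.18 for Wt1 to 4.43 for Nkain4. The groups did not overlap for 5 of these 6 genes, the same number had an unadjusted p under 0.05, and DESeq2 called 4, all higher in WT, beside 25.4%, 8.09% and 2.79% of all genes in that direction. The part of these tissues in the differences of the 10 genes was not tested.

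Relative to the summed endothelial markers, the 10 genes differed in order. Per 1000 CPM of these markers, Id3 was at 50.0 and 53.1 in WT against 25.6 and 24.9 in Qa-2- uteri, and Id1 at 34.4 and 36.3 against 23.2 and 25.6. Atoh8 was at 10.7 and 18.6 against 6.39 and 5.36, and Smad9 at 3.13 and 4.71 against 2.20 and 1.33. Both WT libraries were higher for these 4 genes, with ratios of means of 2.04, 1.45, 2.50 and 2.22, and Atoh8 and Smad9 had been chosen for a higher WT value. These ratios are a description and were not tested. Smad6 was at 8.24 and 8.95 in WT against 9.39 and 12.4 in Qa-2- uteri, and Smad7 at 10.7 and 12.5 against 15.2 and 13.6. Both inhibitory SMADs were lower in WT on this scale, as were Smad1 and Smad5, while Id2 and Id4 overlapped. Relative to the lymphatic markers, the groups overlapped for Atoh8, Smad9, Id1 and Id3, with ratios of means of 1.47, 1.35, 0.786 and 1.13. The other 6 genes were lower in WT on that scale, Id2 and Id4 included, with ratios of means from 0.247 for Smad5 to 0.523 for Id2.

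**Figure D5:**
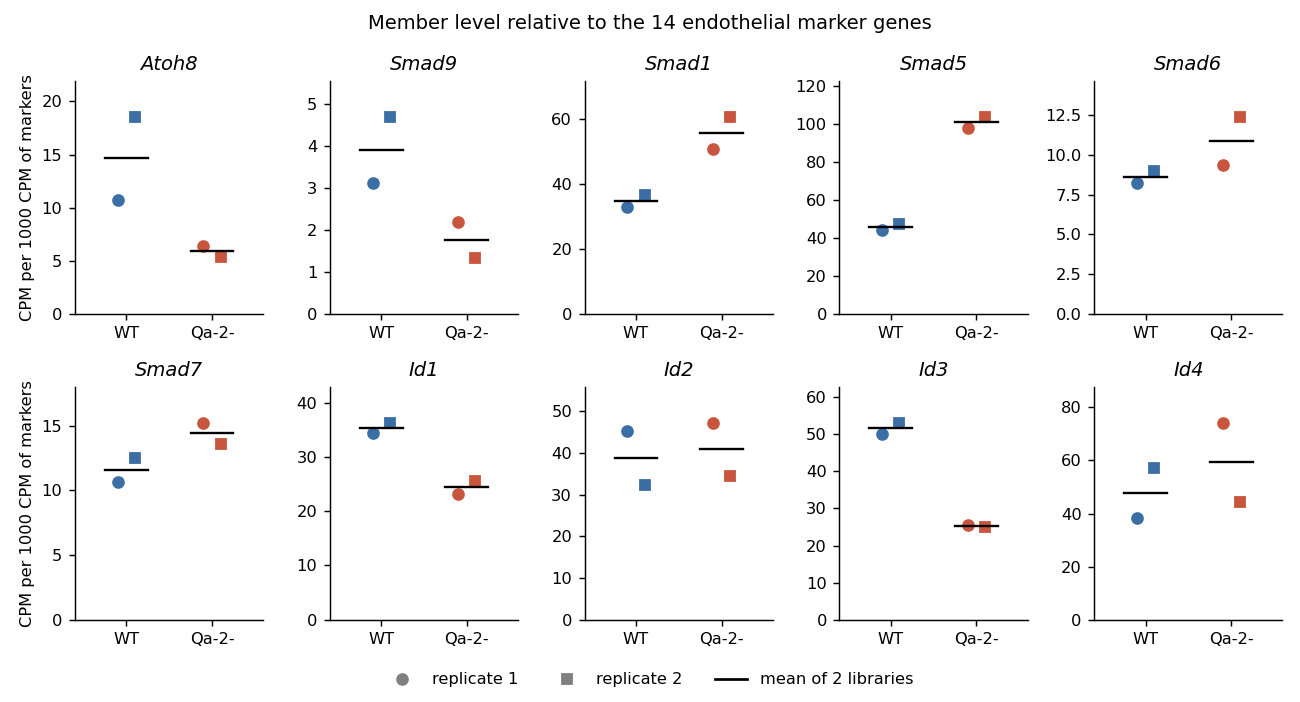
Level of each of the 10 genes per 1000 CPM of the 14 summed endothelial markers in each library, on linear axes from 0. Symbols are as in the plot of levels by library, and bars are means of 2 libraries. Atoh8, Smad9, Id1 and Id3 lie higher in WT, Smad1, Smad5, Smad6 and Smad7 lie higher in Qa-2- uteri, and Id2 and Id4 overlap.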

How the data were processed

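Uteri were snap-frozen, and RNA was isolated from a small amount of the frozen tissue. Poly(A)-enriched, strand-specific libraries were sequenced in read pairs. The authors deposited raw counts, that is the number of read pairs on each gene, made with featureCounts 2.0.0 on GRCm38 (reverse strand, both ends mapped, mapping quality of at least 3). The submitters' processing notes also name STAR 2.7.3a, Subread and the build GRCm38.p6. Pairs that fit several genes were not counted. Of 55421 identifiers 55154 had a symbol in GENCODE M21 and 267 had none. Not analysed here are H2-Q8 and H2-Q9.

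Genes with at least 1 CPM, of the total count, in at least 2 samples were kept, following the stated filter. This left 14492 genes, fewer than the methods give, while edgeR's filterByExpr, an alternative, left 17210, which is the number in the methods. The counts were normalized by TMM (factors between 0.957 and 1.05) and fitted in R 4.3.3 by edgeR 4.0.16 (quasi-likelihood F test of glmQLFit and glmQLFTest, Benjamini-Hochberg adjustment), without a block, since the methods name no test for the transcriptome and describe no pairing. TPM came from the counts and the deposited gene lengths. Groups follow the strain in the labels, and each library is its own mouse. As a check for copies of 1 library only, the 2 libraries of a group were compared and differed by more than sampling noise (chi-square per gene 241 in WT and 151 in Qa-2-). Same-numbered samples had a correlation of -0.37 between their deviations from the group means, which gave no sign of pairing. With 2 libraries in a group, this value cannot exclude a batch shared by same-numbered samples.

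The 10 genes and all lists were chosen with earlier results of these data known. Named are the 10 genes, the genes with the largest and smallest log2 fold change of each pathway list (1 of them is not reported here), the 3 genes nearest to Atoh8 and to Smad9 by Euclidean distance of centred log2 CPM (prior count 2), and the Qa-2 genes. Others were chosen after their values were seen: Bmp6, Acvrl1, Bmpr2, Gdf2, Bmp10, Msx1, Hey1, the E proteins, Tal1, Sox17, Cldn5, Wt1, Nkain4, Rbp4, Psg21 and Afp. Alternatives were DESeq2 1.42.0, other scalings and filters, a robust fit, a replicate block, removal of 49 haemoglobin and mitochondrial genes, each library left out in turn and, added after the data were seen, the crossed pairing. The fits were tested on simulated counts with known changes.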

Additional observations from a re-analysis of the deposited data

How the results depend on the processing

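Atoh8, Smad9, Smad1, Smad6, Smad7 and Id1 to Id4 kept a positive and Smad5 a negative log2 fold change under all 14 alternatives. The counts of calls moved. edgeR's quasi-likelihood test called 0 genes in either direction, with 1172 and 1027 genes at an unadjusted p under 0.05 as higher in WT and in Qa-2- uteri. With library totals alone the balance turned, with 852 and 1457 genes at an unadjusted p under 0.05 in that test. DESeq2 called 404 and 296 genes and no filter gave 47 and 14 genes. Of the 8 genes other than Atoh8 and Smad9, which were not tested, each of these called 2 (Id1 and Id3). With each library left out in turn, where the lone library of a group is assumed to vary like the other group, between 0 and 88 genes were called as higher in WT, between 0 and 5 as higher in Qa-2- uteri and between 0 and 2 of the 8 genes, and the highest counts came without WT replicate 2. The cause was not tested.

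The replicate block called 2 genes as higher in WT and 0 of the 8 genes. It had 717 and 614 genes at an unadjusted p under 0.05 as higher in WT and in Qa-2- uteri, and 4 of the 8 genes. The crossed pairing (chosen after seeing the data) called 0 genes. It had 1867 and 1758 genes at an unadjusted p under 0.05, and 6 of the 8 genes. The correlation of same-numbered samples gave no sign of pairing, but cannot exclude a shared batch.

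The median log2 fold change of the 10 genes, 0.82, was between 0.79 and 1.19 with each library left out, and that of the 8 genes, 0.70, between 0.65 and 0.98, both highest without Qa-2- replicate 1. An unadjusted p under 0.05 was found for 3 to 5 of the 8 genes there, lowest without Qa-2- replicate 2 and without WT replicate 2. The list medians ran from 0.013 to 0.46 for ligands, from -0.10 to -0.021 for receptors, from 0.25 to 0.79 for antagonists, from -0.21 to 0.064 for other targets (positive without WT replicate 1), from 0.26 to 0.70 for TGF-β targets and from 0.10 to 0.35 for bHLH factors. With library totals alone they were -0.17 for receptors and -0.092 for regulators. The ligand median was 0.011 with the replicate block and 0.42 with no filter. Depth sets little limit for the 10 genes, whose lowest count was 36 read pairs.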

Other observations

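The bHLH factors, the proteins that ID proteins bind or are related to, were read from a list of 21 genes, of which 18 passed the filter. Their median was 0.32 on the log2 scale, WT over Qa-2-, against 0.01 over all genes tested. The E proteins, the direct partners of ID proteins, differed little, with log2 fold changes of -0.14 for Tcf3, 0.18 for Tcf4 and -0.10 for Tcf12. An unadjusted p under 0.05 was found for 6 genes, all of them higher in WT (8.09% of all genes). After adjustment edgeR called 0, and DESeq2 called 3, all higher in WT, against 2.79% of all genes in that direction. Msc, a bHLH repressor also called musculin, had the largest log2 fold change and was at 9.09 and 13.8 CPM in WT against 4.31 and 5.03 CPM in Qa-2- uteri. This is a log2 fold change of 1.29 (standard error 0.30, edgeR adjusted p = 0.255). Tal1, a bHLH factor of blood and endothelial progenitors, was at 10.2 and 8.54 CPM in WT against 5.10 and 4.09 CPM. Bhlhe41, a repressor of the circadian clock, had the smallest log2 fold change at -0.58, which ran from -1.23 to 0.15 with single libraries left out, and its libraries overlapped between the groups.

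The 12 targets of TGF-β and activin SMADs, which share SMAD4 with the BMP pathway, had a median of 0.56 on the log2 scale. They went both ways, 7 with a positive and 5 with a negative log2 fold change. Their sums overlapped between the groups, at 11402 and 25296 CPM in WT against 19921 and 9809 CPM. An unadjusted p under 0.05 was found for 4 of the 12 genes, all higher in WT, against 8.09% of all genes in that direction. Ltbp2, which encodes a matrix protein of the latent TGF-β binding family, had the largest log2 fold change at 2.51, from 13.3 and 30.5 CPM in WT against 4.42 and 3.26 CPM in Qa-2- uteri. The adjusted p was 0.246 in edgeR and 2.26e-05 in DESeq2, with a range from 2.26e-05 to 0.818 over the alternatives. Tgif1, a corepressor of SMADs, had the smallest log2 fold change at -0.29, between -0.51 and -0.14 with single libraries left out.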
